A study of Mus musculus with 6 samples.

Results

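The complement genes were read in RNA from mouse intrahepatic biliary epithelial cells, which form the lining of bile ducts inside the liver. The set held 9 genes, taken by their symbols from a table of 25302 rows, and all 9 were present. They encode 5 components that carry the cascade forward (C1ra, C1s1, C4b, C3 and Cfb), the soluble regulators Serping1 and Cfi, and the membrane regulators Cd55 and Cd59a. RNA sequencing covered 3 Control samples of genotype Sox9fl/fl and 3 Sox9cKO samples of genotype Sox9fl/fl:AlbCre+/-, so both groups carried Sox9, a transcription factor gene, in floxed form. AlbCre is a Cre recombinase under the albumin promoter, which is active in the precursors shared by hepatocytes and bile duct cells, and in mature hepatocytes, so it is not specific to bile ducts. The age of the mice and the way the cells were isolated are not given in the sources used here. The samples were counted as separate replicates from their labels, so the p-values measure the spread between these samples only.

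Complement is a set of plasma and cell surface proteins that mark targets for uptake or lysis, and the liver is its main source in the body. In the classical pathway the recognition protein C1q activates the protease C1r, C1r activates C1s, and C1s cleaves C4 and C2. The lectin pathway reaches the same step through mannose-binding lectin and MASP proteases, while the alternative pathway amplifies cleavage of C3 through factor B and factor D. All routes meet at C3, whose large fragment can start the assembly of the terminal proteins into a membrane pore. Soluble and membrane regulators hold the cascade in check on the body's own cells, and bile duct cells are exposed to complement on their blood side and in bile.

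The libraries held between 11883496 and 16191990 reads assigned to genes. Sox9, the targeted gene, was lower in all 3 Sox9cKO samples but was not absent, at 53.2% of the Control mean (limma log2 fold change -0.91, SE 0.095, adjusted p = 0.00501). All 16 biliary markers were present in all 6 libraries, and Krt19 lay between 11480 and 26648 normalized reads. Markers of other liver cells were present as well. All 20 hepatocyte, 11 endothelial, and 12 stellate cell and fibroblast markers had reads in all 6 libraries. Presence alone therefore cannot check the biliary identity of the samples. The summed normalized reads of 11 endothelial markers ran from 1598 to 34769 in Control and from 5713 to 35759 in Sox9cKO, with Control replicate 3 and Sox9cKO replicate 3 lowest. The sum over 20 hepatocyte markers lay between 26029 and 39699 in Control and between 48588 and 80139 in Sox9cKO, and the 10 Kupffer cell and leukocyte markers in the table summed to at most 1809. The 12 stellate cell and fibroblast markers summed to between 9974 and 15577 in Control and between 8842 and 16747 in Sox9cKO. The part of RNA from these cells in the complement values was not tested.

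In Sox9cKO, 6 of the 9 genes passed the test across all genes, and all 6 were higher: C1s1, Cfb, C3, Cfi, Serping1 and C4b. Among the 17153 genes tested (those whose mean normalized count was 10 or more), 2.97% passed and 2.03% passed with a higher level in Sox9cKO. Without overlap between the groups, 7 of the 9 genes were higher in Sox9cKO, against 13.4% of all genes tested. The median log2 fold change of the 9 genes was 0.89, beside 0.036 for all genes tested. The other 3 genes, C1ra, Cd55 and Cd59a, did not pass. With the replicate number as a block in the fit 7 of the 9 passed, C1ra being the addition, and 8.05% of all genes tested passed and 5.06% passed with a higher level. Other fits on all 6 samples also changed a member's call. The shares of all genes that passed in them were 3.00% with quantile normalization, 2.33% without an intensity trend, 6.76% with edgeR and the block, and 8.83% with DESeq2 and the block. Fits without 1 sample changed calls too, and between 200 and 389 genes passed in them. A normalized read is a read count after division by its library's size factor. Log2 fold changes are on the log2(value + 1) scale with limma's test and Benjamini-Hochberg adjustment, unless another method is named. Folds between the means are ratios of mean normalized reads, and ratios between genes were taken with nothing added to the values.

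**Figure D1:**
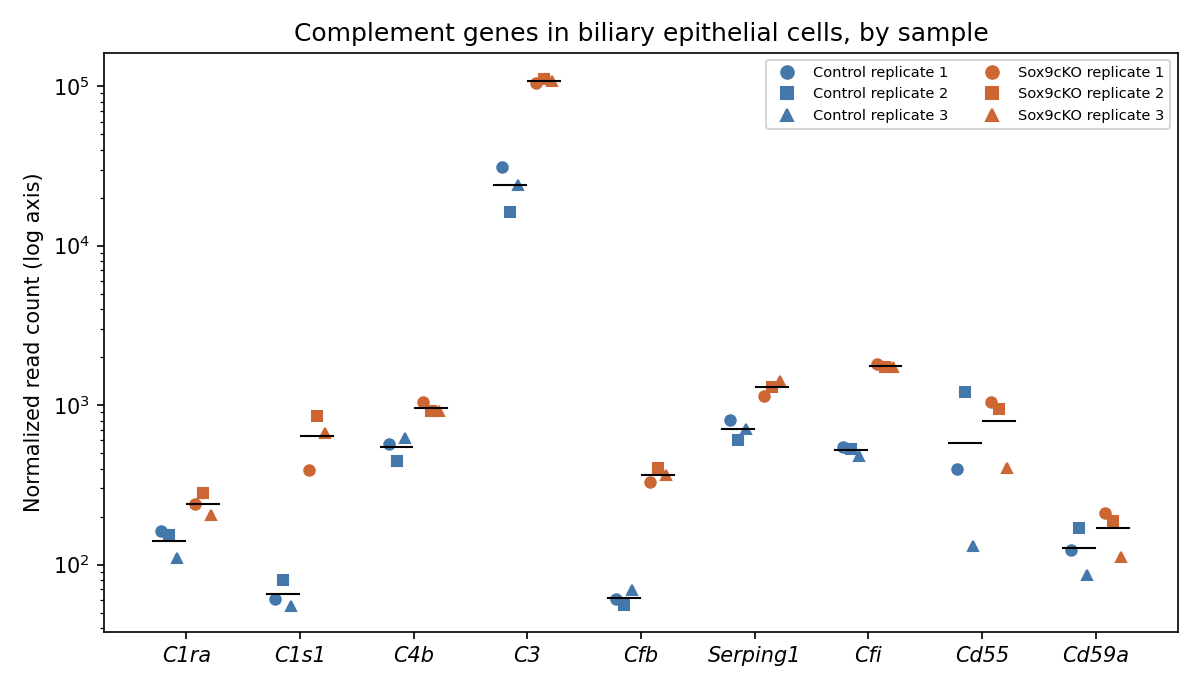
Normalized read counts (log axis) of the 9 complement genes in each of the 6 libraries, in the order of their roles, with a black line at the mean of each group of 3. The Sox9cKO points lie above all Control points for C1ra, C1s1, C4b, C3, Cfb, Serping1 and Cfi, while the groups overlap for Cd55 and Cd59a.

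The gene of the second protease of the classical pathway had the largest change of the set. C1s1, which encodes C1s, the protease that cleaves C4 and C2, had 60.5, 79.8 and 55.3 normalized reads in the Control samples, in replicate order, and 394, 849 and 668 in the Sox9cKO samples. All 3 Sox9cKO samples were above all Control samples, and replicate 1 was the lowest of them. C1s1 rose 9.77-fold between the means, from 65.2 ± 12.9 to 637 ± 229 (SD, n = 3 per group; log2 fold change 3.22, SE 0.30, limma adjusted p = 0.00375). In bulk RNA, more cells of a type and more RNA per cell cannot be told apart, which holds for every change below.

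C1ra, which encodes the protease that activates C1s, had 163, 152 and 109 normalized reads in Control and 240, 281 and 204 in Sox9cKO. The groups did not overlap, but the change of 0.77 on the log2 scale (SE 0.21, 95% interval 0.27 to 1.28) did not pass with limma (adjusted p = 0.117). It passed when the replicate number was added to the fit as a block (limma adjusted p = 0.0320). The C1s1 to C1ra ratio of reads was 0.371, 0.524 and 0.505 in Control and 1.64, 3.02 and 3.28 in Sox9cKO. The partner proteases thus differed in the size of their change: the log2 ratio moved by 2.46, without overlap between groups, and the exact two-sided permutation p of 0.10 is the smallest that 3 against 3 samples allow (0.133 after adjustment over the 4 ratios computed). C1ra and C1s1 are neighbours on mouse chromosome 6, together with their near-copies C1rb and C1s2.

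C4b encodes complement C4, whose large fragment binds covalently to a target and anchors the classical C3 convertase. Its normalized reads were 568, 445 and 623 in Control and 1049, 917 and 925 in Sox9cKO. The lowest Sox9cKO sample was above the highest Control sample. C4b rose 1.77-fold between the means (log2 fold change 0.83, SE 0.16, limma adjusted p = 0.0381), but it lost its call in every one of the 6 fits that left out 1 sample (adjusted p from 0.0635 to 0.134). Its near-identical copy C4a, which RefSeq lists as a transcribed pseudogene, had 89.1, 83.5 and 97.9 normalized reads in Control and 57.7, 75.6 and 71.3 in Sox9cKO. C4a did not pass (log2 fold change -0.40, limma adjusted p = 0.358). C4a took 13.6% to 15.8% of the reads of the pair in Control and 5.22% to 7.62% in Sox9cKO. How the authors' counting split reads between such copies is not given in the sources used here, so the values of both are uncertain.

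C3 is the protein on which all pathways converge, and it was by far the most abundant transcript of the set. Its normalized reads were 31281, 16299 and 24142 in Control and 104449, 110449 and 107264 in Sox9cKO. The Sox9cKO samples lay close together, while the Control samples were spread more widely, with replicate 2 lowest. C3 rose 4.49-fold between the means, from 23907 ± 7494 to 107387 ± 3002 (SD, n = 3 per group; log2 fold change 2.22, SE 0.23, limma adjusted p = 0.00512). It took 0.120% to 0.230% of all normalized reads of a Control library and 0.709% to 0.774% of a Sox9cKO library. By read number it ranked between 19 and 53 among all genes in Control and between 6 and 8 in Sox9cKO.

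Cfb encodes factor B, which joins cleaved C3 to form the convertase of the alternative pathway. Its normalized reads were 60.5, 55.7 and 69.1 in Control and 328, 404 and 365 in Sox9cKO. Cfb rose 5.92-fold between the means, with a spread within groups far smaller than the gap between them (log2 fold change 2.55, SE 0.17, limma adjusted p = 0.00134). C2, the classical counterpart of factor B and its neighbour on chromosome 17, had 104, 93.7 and 124 normalized reads in Control and 190, 290 and 225 in Sox9cKO. C2 rose as well, by less (log2 fold change 1.11, SE 0.21, limma adjusted p = 0.0411), and this call was lost in all 6 fits without 1 sample (adjusted p from 0.0503 to 0.160).

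RefSeq promoter windows on GRCm38.p6 were at hand for 5 of the 9 genes (C3, C1s1, C1ra, Cd55 and Cd59a). The bases just before the start site are shown for C3 and C1s1, which rose, and for C1ra, the neighbour of C1s1 that did not pass. Each runs 5′ to 3′ over 250 bases on the gene's own strand, minus for C3 (chr17:57228137-57228386) and C1s1 (chr6:124542360-124542609, the more upstream of 2 listed starts) and plus for C1ra (chr6:124512371-124512620). Capitals mark matches to 4 motifs searched on both strands: C/EBP (TTGCNNAA), STAT (TTCNNNGAA), NF-kB (GGG and TCC with any 4 bases between them) and SOX (ACAATG).
C3: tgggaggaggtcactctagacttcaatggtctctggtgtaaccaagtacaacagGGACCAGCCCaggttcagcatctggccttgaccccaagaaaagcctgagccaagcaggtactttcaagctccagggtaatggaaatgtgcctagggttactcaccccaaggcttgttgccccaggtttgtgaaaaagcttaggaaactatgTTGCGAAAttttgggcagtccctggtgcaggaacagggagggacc
C1s1: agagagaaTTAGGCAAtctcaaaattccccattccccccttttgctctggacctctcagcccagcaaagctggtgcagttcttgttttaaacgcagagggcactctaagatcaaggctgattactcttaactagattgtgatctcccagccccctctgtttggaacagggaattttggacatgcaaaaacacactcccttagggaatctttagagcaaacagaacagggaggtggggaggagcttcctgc
C1ra: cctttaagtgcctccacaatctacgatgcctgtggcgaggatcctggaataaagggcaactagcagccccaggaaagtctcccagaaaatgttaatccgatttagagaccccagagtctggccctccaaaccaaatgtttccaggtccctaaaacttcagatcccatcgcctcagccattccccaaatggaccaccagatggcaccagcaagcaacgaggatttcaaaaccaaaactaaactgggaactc
In C3 the run TTGCGAAA, between 45 and 38 bases before the start, matched the C/EBP motif, and GGACCAGCCC, between 196 and 187 bases before it, matched the NF-kB motif on the other strand. In C1s1 the run TTAGGCAA, between 242 and 235 bases before the start, matched the C/EBP motif on the other strand, while the window before its other listed start held no match. C1ra and Cd55 had no match to the 4 motifs, and Cd59a had 1 match, to the SOX motif, 228 to 223 bases before its start. The matches did not overlap each other. Of 32851 windows of this length in the RefSeq table, 9.56% held the C/EBP motif, 16.5% the NF-kB motif, 10.7% the SOX motif and 7.02% the STAT motif, so single matches are common.

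Both soluble regulators of the set passed with higher levels in Sox9cKO. Cfi encodes factor I, the protease that inactivates the active fragments of C3 and C4. Its normalized reads were 546, 531 and 482 in Control and 1820, 1737 and 1738 in Sox9cKO, a narrow range within each group. Cfi rose 3.40-fold between the means (log2 fold change 1.76, SE 0.11, limma adjusted p = 0.00114), the most precise change of the 9 by its standard error. Serping1 encodes the C1 inhibitor, which inactivates C1r, C1s and the MASP proteases. It had 801, 604 and 711 normalized reads in Control and 1144, 1308 and 1425 in Sox9cKO, without overlap. Serping1 rose 1.83-fold (log2 fold change 0.88, SE 0.15, limma adjusted p = 0.0274), but 5 of the 6 fits without 1 sample lost the call, all except the fit without Sox9cKO replicate 1 (adjusted p from 0.0448 to 0.0960).

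C3, Cfb and C4b were also each set against a soluble regulator of the set, within each sample. Of these pairs, only C3 and Cfi join a component with the regulator described above as acting on its fragments. The C3 to Cfi ratio of reads was 57.3, 30.7 and 50.1 in Control and 57.4, 63.6 and 61.7 in Sox9cKO. These groups barely separated, because Control replicate 1 was at the level of Sox9cKO replicate 1 (log2 difference 0.45, exact permutation p = 0.10). Without Control replicate 2, the lowest, the difference was 0.18. The Cfb to Cfi ratio was 0.111, 0.105 and 0.144 in Control and 0.180, 0.232 and 0.210 in Sox9cKO, a log2 difference of 0.80 without overlap (exact permutation p = 0.10). The C4b to Serping1 ratio was 0.709, 0.737 and 0.877 in Control and 0.917, 0.701 and 0.649 in Sox9cKO, which overlapped (log2 difference -0.046, exact permutation p = 0.70). No such test with 3 against 3 samples can go below 0.10, and the adjusted values over the 4 ratios were 0.133 for the 3 without overlap and 0.70 for C4b to Serping1.

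**Figure D2:**
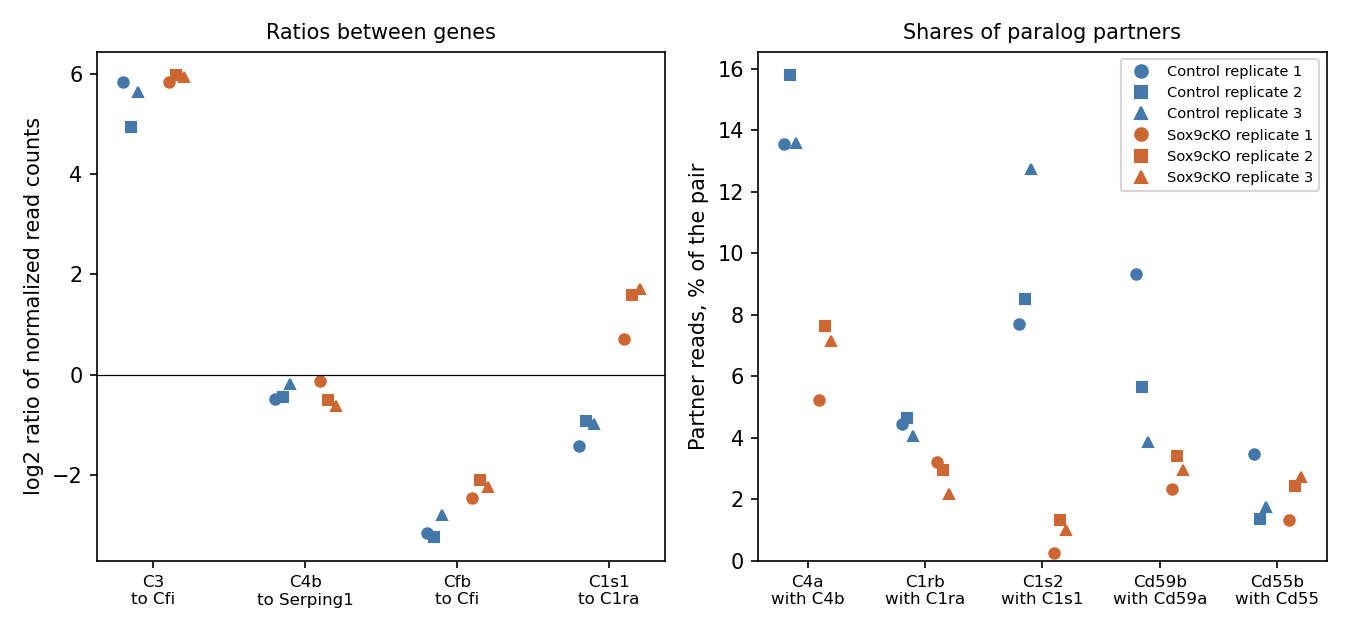
Left, log2 ratio of normalized read counts of 4 gene pairs, and right, the share of the reads of 5 pairs of near-copies that fell on the partner gene, for each of the 3 Control and 3 Sox9cKO libraries. The C1s1 to C1ra ratio separates the groups most, while C4b to Serping1 overlaps. The shares of C4a, C1rb, C1s2 and Cd59b are lower in each Sox9cKO library than in any Control library.

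The membrane regulators behaved otherwise: their groups overlapped and neither passed. Cd55 encodes decay-accelerating factor, which takes apart C3 convertases on the cell surface. Its normalized reads were 398, 1208 and 130 in Control and 1043, 944 and 404 in Sox9cKO, so the highest and the lowest of the 6 values were both Control samples. The log2 fold change was 0.89 with an SE of 0.77 and a 95% interval from -0.91 to 2.68 (limma adjusted p = 0.611), an interval that leaves room for a fall or for a rise of the size seen in C3. Without Control replicate 3 the log2 fold change was 0.085, and without Control replicate 2 it was 1.69, neither of which passed.

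Cd59a encodes CD59, which blocks the final step of pore assembly. It had 123, 171 and 86.4 normalized reads in Control and 210, 188 and 112 in Sox9cKO. The log2 fold change was 0.43 with a 95% interval from -0.34 to 1.20 (limma adjusted p = 0.564). Without 1 sample it ran from 0.18 (Control replicate 3 left out) to 0.70 (Sox9cKO replicate 3 left out), and it passed in none of these 6 fits. Both Cd55 and Cd59a were lowest in Control replicate 3, next lowest in Control replicate 1 or Sox9cKO replicate 3, and higher in the other 3 libraries. The summed level of the 11 endothelial markers split the libraries in the same way, with 11087, 34769 and 1598 in Control and 27504, 35759 and 5713 in Sox9cKO. Pecam1, which defines endothelium, had 841, 3057 and 253 normalized reads in Control and 1870, 2654 and 489 in Sox9cKO. None of these 11 markers was at 0 in any library and none passed with limma. Their median log2 fold change was 1.09, beside 0.036 for all genes tested. With the block 2 passed, Egfl7 and Vwf, both higher in Sox9cKO. Of all genes tested, 8.05% passed with the block and 5.06% passed with a higher level. The part of endothelial RNA in the Cd55 and Cd59a values was not tested.

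**Figure D3:**
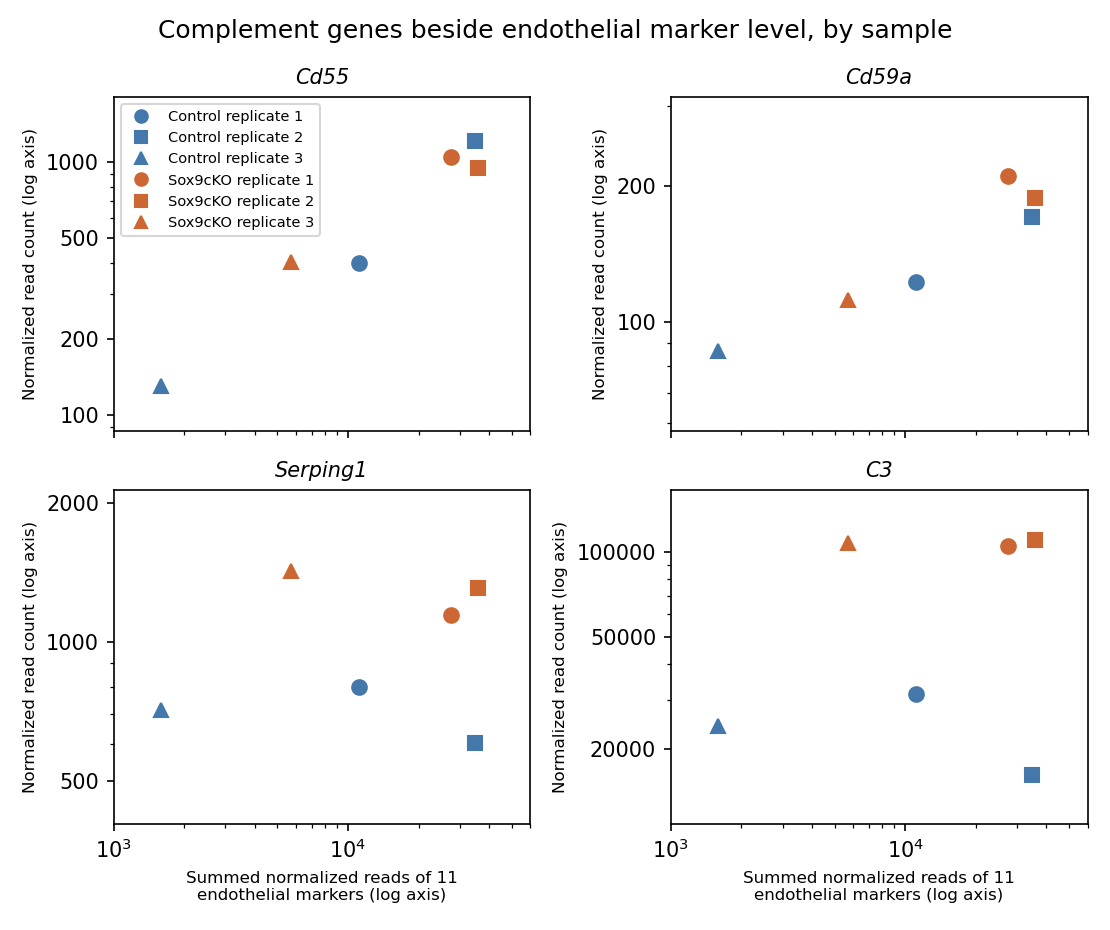
Normalized read count (log axis) of Cd55, Cd59a, Serping1 and C3 against the summed normalized reads of 11 endothelial markers (log axis), 1 point per library. Cd55 and Cd59a are low in the 3 libraries with sums up to 11087 and high in the 3 with sums from 27504 in both groups, while Serping1 and C3 separate by genotype.

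Levels of different genes were compared only per length, as normalized reads per kilobase of exon (exon lengths from GENCODE M21). In Control the order was C3 (4649 ± 1457), Serping1 (303 ± 42.4), Cfi (234 ± 15.1), Cd55 (119 ± 116), C4b (95.8 ± 16.0), Cd59a (69.9 ± 23.4), C1ra (47.5 ± 9.51), Cfb (21.9 ± 2.41) and C1s1 (20.8 ± 4.13; SD, n = 3 each). Only C3 against Serping1, Serping1 against Cfi and C1ra against Cfb did not overlap among neighbours in this order. In Sox9cKO the levels per kilobase were 20880 ± 584 for C3, 795 ± 21.4 for Cfi, 556 ± 60.7 for Serping1, 204 ± 73.2 for C1s1, 169 ± 13.0 for C4b, 164 ± 70.8 for Cd55, 129 ± 13.3 for Cfb, 93.9 ± 28.4 for Cd59a and 81.0 ± 12.9 for C1ra. C1s1 thus moved from the last place to the fourth, Cfi passed Serping1, and C1ra became the last. In Sox9cKO the neighbours C1s1 and C4b, C4b and Cd55, Cd55 and Cfb, and Cd59a and C1ra overlapped, and the others did not.

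The rest of the pathway was read from lists by role. Of 60 complement genes listed, 59 were in the table and 51 could be tested. With limma 11 passed, all higher in Sox9cKO, and 5 of these were outside the set of 9: Vtn, C8a, C4bp, C1rl and C2. That is 5 of 42 tested genes outside the set, whose median log2 fold change was 0.015, beside 0.036 for all genes tested. Of all genes tested, 2.97% passed and 2.03% passed with a higher level. With the block 17 of the 51 passed, 16 higher and 1 lower, beside 8.05% of all genes tested. Among the additional calls were C1ra, C9, Cpn1 and Cpb2, all higher, and Itgax, which was lower.

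Among the soluble regulators, 4 of 10 tested genes passed, all higher, beside 2.03% of all genes tested that passed with a higher level. These were Serping1 and Cfi, already counted in the set of 9, and Vtn and C4bp. Vtn encodes vitronectin, a matrix and plasma protein that keeps the terminal complex out of membranes. It had 589, 714 and 303 normalized reads in Control and 11057, 8643 and 8595 in Sox9cKO. Vtn rose 17.6-fold between the means, more than any other gene of the complement lists that was tested (log2 fold change 4.22, SE 0.31, limma adjusted p = 0.00173). C4bp, which encodes the binding protein that helps factor I to cleave C4b, rose from 151 ± 72.3 to 745 ± 425 (SD, n = 3 per group; log2 fold change 2.25, limma adjusted p = 0.0457) and kept its call in 1 of the 6 fits without 1 sample.

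Cpn1, a carboxypeptidase that inactivates the anaphylatoxins, stood at 1.14 on the log2 scale (limma adjusted p = 0.0575 without the block and 0.00730 with it). Cpb2, another carboxypeptidase of plasma, stood at 3.43 on the log2 scale with few reads in Control (limma adjusted p = 0.0535 without the block and 0.0335 with it), and it did not pass with edgeR and the block (adjusted p = 0.0619). Clu encodes clusterin, which binds the terminal complex, and its normalized reads of 114290, 95323 and 97274 in Control and 108413, 84368 and 81918 in Sox9cKO overlapped (log2 fold change -0.17, limma adjusted p = 0.672). Clusterin transcripts were thus abundant in both groups.

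**Figure D4:**
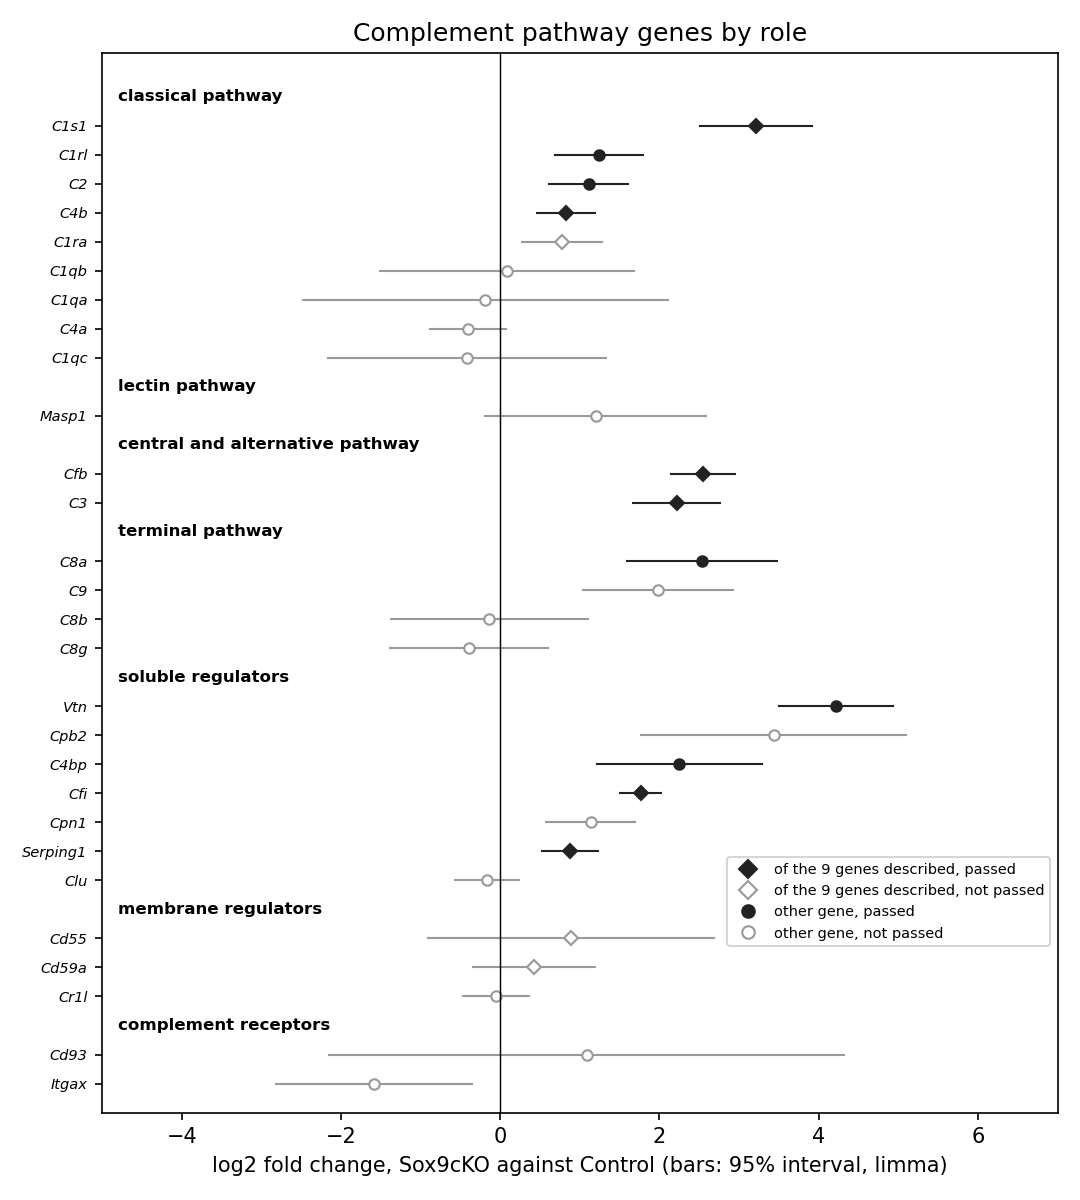
Log2 fold change of Sox9cKO against Control with its 95% interval (limma, n = 3 per group) for 28 of the 51 complement genes tested, those described in the text, grouped by role. The filled symbols, which mark the 11 genes that passed, all lie above 0, in the classical, central, terminal and soluble regulator groups.

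In the classical list, 4 of 9 tested genes passed, all higher: C1s1 and C4b, already counted in the set described, and C2 and C1rl. C1rl, a protease similar to C1r, had 21.0, 20.4 and 21.9 normalized reads in Control and 51.7, 49.1 and 53.2 in Sox9cKO (log2 fold change 1.24, limma adjusted p = 0.0395), a call lost in all 6 fits without 1 sample. The chains of C1q, which macrophages make, did not pass and lay between 2.26 and 25.9 normalized reads in every library. Of the near-copies of the members, C1rb and C1s2 had too few reads to be tested, at no more than 8.51 and 11.3 normalized reads. C1s2 took 7.69% to 12.7% of the C1s1 pair in Control and 0.252% to 1.32% in Sox9cKO. Cd59b, also untested, took at most 9.32% of the Cd59a pair, and Cd55b at most 3.47% of the Cd55 pair.

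The terminal list had 1 call among 7 tested genes. C8a, a chain of the pore protein C8, had 12.6, 23.2 and 9.22 normalized reads in Control and 60.7, 92.6 and 112 in Sox9cKO (log2 fold change 2.53, SE 0.40, limma adjusted p = 0.0213). It kept its call in 2 of the 6 fits without 1 sample. C9, the protein that forms the wall of the pore, had 13.4, 39.0 and 16.1 normalized reads in Control and 88.5, 79.4 and 83.8 in Sox9cKO, just short of the threshold (log2 fold change 1.98; limma adjusted p = 0.0504 without the block and 0.0239 with it). The genes of the other C8 chains, C8b and C8g, overlapped between groups at 4.97 to 17.7 normalized reads.

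None of the 6 tested lectin pathway genes, 7 membrane regulators or 8 receptors passed with limma. Masp1, a lectin pathway protease, had 442, 1026 and 173 normalized reads in Control and 952, 1360 and 737 in Sox9cKO (log2 fold change 1.20, limma adjusted p = 0.351). Its lowest and highest Control samples were replicates 3 and 2, as for Cd55 and the endothelial markers. Cd93, a receptor of endothelial cells once assigned to C1q, ran from 63.4 to 2899 in Control and from 257 to 2396 in Sox9cKO. Cr1l, the rodent membrane regulator Crry, had 680, 882 and 830 normalized reads in Control and 709, 665 and 943 in Sox9cKO (log2 fold change -0.053, 95% interval -0.46 to 0.36, limma adjusted p = 0.915). Itgax, a chain of a leukocyte complement receptor, had 29.4, 96.5 and 53.0 in Control and 9.95, 27.4 and 18.1 in Sox9cKO, and did not pass (log2 fold change -1.58; limma adjusted p = 0.176 without the block and 0.0191 with it).

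Hepatocytes are the main makers of most of these plasma proteins, so hepatocyte markers were set beside the complement genes. Of 20 hepatocyte markers tested, 2 passed, Apob and Tat, both higher, beside 2.97% of all genes tested. The median log2 fold change of the list was 0.38. Apob rose from 2712 ± 547 to 22111 ± 9058 and Tat from 91.9 ± 28.7 to 437 ± 95.6 (SD, n = 3 per group; limma adjusted p = 0.00383 and 0.00726). With the block Ahsg and Hnf4a passed as well, both higher, beside 8.05% of all genes tested that passed. Without overlap between the groups, 6 of the 20 markers were higher in Sox9cKO (Apob, Tat, Ahsg, Hnf4a, Arg1 and G6pc) and none was lower. Of all genes tested, 13.4% were higher without overlap. Ahsg, which encodes the plasma protein fetuin-A, had 672, 753 and 355 normalized reads in Control and 1552, 1082 and 1505 in Sox9cKO (log2 fold change 1.27; limma adjusted p = 0.0770 without the block and 0.0367 with it). The groups overlapped for Alb and Cyp2e1. Alb had 27683, 17384 and 18944 normalized reads in Control and 32147, 21399 and 35363 in Sox9cKO, a 1.39-fold difference of the means. Cyp2e1 had 128, 31.6 and 40.3 in Control and 122, 55.8 and 31.7 in Sox9cKO (log2 fold change 0.13, limma adjusted p = 0.945). Without Alb and Apob, the remaining 18 markers summed to 6404 to 8704 in Control and 10007 to 14719.5 in Sox9cKO. The part of hepatocyte RNA in the complement changes was not tested.

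The Kupffer cell and leukocyte markers summed to between 1048 and 1210 normalized reads in Control and between 1555 and 1809 in Sox9cKO. Csf1r made up most of this sum on average in each group, so the higher sum does not stand for the list. The median log2 fold change of the 6 tested markers was -0.83, beside 0.036 for all genes tested. Ptprc, the pan-leukocyte marker, lay between 19.6 and 37.0 normalized reads in Control and between 1.13 and 16.9 in Sox9cKO (log2 fold change -1.95, limma adjusted p = 0.266). Csf1r was the only 1 of the 6 tested markers that passed without the block, beside 2.97% of all genes tested. It went from 761 ± 48.9 to 1450 ± 186 (SD, n = 3 per group; log2 fold change 0.92, limma adjusted p = 0.0142), and it lost its call in 3 of the 6 fits without 1 sample. With the block Lyz2 passed too, with a lower level (log2 fold change -1.33; limma adjusted p = 0.243 without the block and 0.0417 with it), beside 8.05% of all genes tested. Among biliary markers Krt7 rose (log2 fold change 0.997, limma adjusted p = 0.0408), a call kept in 1 of the 6 fits without 1 sample, and Sox9 fell. With the block 5 of the 16 biliary markers passed, beside 8.05% of all genes tested. Of these 5, 1 was higher (Krt7) and 4 were lower, among them Sox9, Spp1 and Pkhd1.

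Complement genes respond in many cells to interleukin 6, interferon and NF-kB signals, so 19 receptors and factors of these routes were read as well. With limma 1 of the 19 passed, beside 2.97% of all genes tested. Il6ra, the interleukin 6 receptor subunit, had 111, 114 and 132 normalized reads in Control and 209, 298 and 281 in Sox9cKO (log2 fold change 1.12, SE 0.19, limma adjusted p = 0.0274), and 5 of the 6 fits without 1 sample lost this call. With the block Stat3, which carries the interleukin 6 signal to the nucleus, passed with a lower level (log2 fold change -0.46; limma adjusted p = 0.218 without the block and 0.0432 with it). The median log2 fold change of the list was 0.079.

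Over the 6 samples, the 5 genes whose log2 values followed those of C3 most closely were Vnn1, Serpina1d, Ccser1, Apol7d and Arpc5l, with Pearson r from 0.991 to 0.995 among 9940 genes whose mean was 100 normalized reads or more. Their group means went from 294 to 840 for Vnn1, 27.2 to 190 for Serpina1d, 124 to 177 for Ccser1, 71.8 to 243 for Apol7d and 184 to 263 for Arpc5l. The samples share their library and their group, so the likeness only describes these libraries. Within the set of 9, r with C3 was 0.98 for Serping1 and Cfb, 0.97 for Cfi and C4b, 0.93 for C1s1, 0.85 for C1ra, 0.37 for Cd59a and 0.27 for Cd55. The membrane regulators were thus the least like C3 of the set, as in the values by sample.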

How the data were processed

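Gene expression was measured by RNA sequencing of 3 Control and 3 Sox9cKO samples, from ribosome-depleted total RNA in stranded libraries with molecular identifiers, per the labels' protocols. The deposited values are a signal per gene, which the authors made by dividing gene counts by 1 size factor per library, and the submitters' processing notes name DESeq2 1.36.0 and GRCm39. The aligner, the counting rules and the use of the identifiers are not given in the sources used here, so read numbers may include PCR copies. Every value was a whole multiple of what 1 read is worth in its library (100% of values, tolerance 0.001 reads), which gave whole reads for the alternatives.

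Values were tested as log2(value + 1) with limma 3.58.1 (R 4.3.3, intensity trend) over the 17153 genes with a mean of at least 10, adjusted by Benjamini-Hochberg and called under 0.05, in two-sided tests. The groups' replicate numbers come from the labels, and same-numbered samples deviated together (correlations across genes of 0.207, 0.472 and 0.542), so the fit with a replicate block is given where it changes a call. Alternatives were 2 other pseudocounts, 2 filters, TMM and quantile scaling, no trend, sample weights, the block, edgeR 4.0.16 and DESeq2 1.42.0 with and without it, and 6 fits without 1 sample. The scripts were tested on simulated reads. There the limma fit with the block recovered fewer changed genes than the fit without it, and made a larger share of false calls, above the threshold. The simulated reads held no replicate effect, unlike these libraries, so they cannot show how the block fit performs here. Calls made only with the block depend on that choice of fit. The members and gene lists were chosen with earlier results of these data known. Besides the 9 genes, those named are Sox9, genes of the complement lists called with or without the block, at most 4 further complement genes with a mean of at least 500, near-copies of members, called markers with Alb, Cyp2e1, Pecam1 and Ptprc, and the 5 genes most like C3. Il6ra, Stat3, Egfl7, Vwf, Lyz2, Krt19, Spp1, Pkhd1, Ahsg, Hnf4a, Arg1, G6pc and the genes of the C1q chains, C8b and C8g were named after their values were seen. Some genes that the rule selects are not reported here. Promoter sequences and exon lengths are from RefSeq (GRCm38.p6) and GENCODE M21 (GRCm38), not the build of the table.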

Additional observations from a re-analysis of the deposited data

How the results depend on the processing

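C1s1, C3, Cfb, Cfi and Sox9 kept their direction and their call under all 19 alternatives run, and Cd55 and Cd59a passed under none of them. The number of the 9 complement genes called lay between 4 and 7. C4b lost its call with quantile normalization (log2 fold change 0.72) and without the intensity trend (0.83), and Serping1 lost it without the trend (0.88). Over the fits without 1 sample the log2 fold change of C4b ran from 0.69 to 0.93 and that of Serping1 from 0.77 to 0.97. C1ra passed with the replicate block in limma (0.77), edgeR (0.73) and DESeq2 (0.74). The number of complement genes called was 11, against 7 without the trend, 17 with the replicate block in limma and in DESeq2, and 5 to 9 without 1 sample.

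Over all genes, 510 were called (349 higher, 161 lower), against 1043 (631 and 412) with sample weights and 1381 (868 and 513) with the replicate block. edgeR with the replicate block gave 1160 (664 and 496), DESeq2 gave 1214 (721 and 493), and DESeq2 with the block gave 1514 (913 and 601). Without 1 sample the numbers were 200 to 389 in all, 153 to 275 higher and 47 to 114 lower. The difference in the C4b to Serping1 log2 ratio changed sign, from -0.19 to 0.056 without 1 sample. Fits without 1 sample have fewer samples, and for the other settings the cause was not tested. Read numbers limit C1rl, C8a, C9, Cpb2 and the near-copies, which had under 100 normalized reads in most libraries.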
